A study of Saccharomyces cerevisiae with 7 samples.

Results

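Transcript levels of scc2-4 cells of the budding yeast Saccharomyces cerevisiae were compared with those of wild type cells at 37C. The comparison used 4 of the 7 one-colour oligonucleotide arrays of the study, those titled scc2-4 at 37C (2 arrays) and wild type at 37C (2 arrays), and the 5449 S. cerevisiae genes that the array annotation names. Wild type cells were strain YK700, of mating type a, with the alleles ura3-52 and ade2-1, the tryptophan marker trp1-1, the histidine marker his3-11,15 and the leucine marker leu2-3, 112, as well as can1-100, GAL and psi+. The scc2-4 cells were strain Y4251, also of mating type a, and carried the scc2-4 allele together with the tagged constructs Scc1-Pk9::TRP1 and Sth1-9myc::URA3, so the effects of the allele, of the tags and of the strain background cannot be told apart. Cells of both strains grew in rich glucose medium at 25C and were held at 37C for 2 h before RNA was taken. The wild type 25C array of the same strain is given beside the results as a single value, and 2 arrays of sth1-3 cells at 37C entered the fit of all arrays to estimate the spread. The sth1-3 cells were strain Y4343, of mating type α, with the temperature-sensitive allele sth1-3ts and the tagged construct Scc2-Pk9::TRP1.

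Cohesin is a ring-shaped protein complex that holds sister chromatids together and folds chromosomes into loops, and Scc2 with its partner Scc4 loads it onto DNA. In yeast, loading sites include the promoters and upstream regions of highly transcribed genes such as those for ribosomal proteins, transfer RNAs and glycolytic enzymes, and the loader has been tied to nucleosome-free regions kept open by the remodeller RSC, whose ATPase is Sth1. The scc2-4 allele is temperature-sensitive: cells grow at low temperature and lose cohesin loading at 37C. The comparison asks which transcripts differ between scc2-4 and wild type cells at 37C. Activity of the loader was not measured in these data.

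The deposited values were log2 intensities after robust multi-array averaging (RMA), 1 per probe set and array. The annotation also names 1746 probe sets of the array for the fission yeast S. pombe, whose RNA was not in the samples. The 95th percentile of these on each array is called the background here (9.94 to 10.07 on the 5 arrays described). Probe sets without a gene name were not used for it. Signal was low: 486 to 604 genes lay above background on the wild type and scc2-4 arrays at 37C, 966 on at least 1 of the 4 arrays, 197 on all 4 and 4483 on none. The scc2-4 replicates were unlike each other before any gene is considered. Bacterial hybridisation controls averaged 12.5 both on scc2-4 replicate 1 and for wild type at 25C, but 11.7 on both wild type 37C arrays and 11.5 on scc2-4 replicate 2. For the 25S ribosomal RNA, the signal of the 3' probe set was above that of the 5' one by 3.03 on scc2-4 replicate 1 and by 0.31 on replicate 2, against 0.30 and 0.32 in wild type at 37C and 3.13 at 25C. The arrays are therefore given singly for the genes described. Replicate 2 is also set alone against wild type, since it shares the control level of the wild type 37C arrays. Array sets are the arrays divided at the widest gap in hybridisation control level, a grouping that the labels do not give. A fit with the array set as a term is given beside some results, but the cause of the differences of replicate 1 was not tested.

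Replicate 2 of scc2-4 was closer to a wild type array than the wild type arrays were to each other. It differed from wild type replicate 1 by more than 1 log2 unit in 10 genes (r = 0.980 across genes, which are not independent replicates), whereas the wild type replicates differed by that much in 164 genes (r = 0.915). It differed from wild type replicate 2 in 157 genes (r = 0.913). Replicate 1 differed from the wild type arrays in 901 and 893 genes (r = 0.765 and 0.746), from scc2-4 replicate 2 in 775 genes and from the wild type 25C array in 250. Set against the wild type 37C mean, 453 genes lay more than 1 log2 unit higher and 335 lower on replicate 1, and 13 higher and 2 lower on replicate 2.

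Reading frames of the Ty1 and Ty2 retrotransposons, mobile elements that copy themselves through an RNA and encode the Gag-like TYA and the Pol-like TYB proteins, were higher in scc2-4 cells than in wild type cells at 37C on both replicates. Of 82 reading frames listed, 8 were named on the array. All 8 lay higher on each scc2-4 array than on either wild type 37C array, as did 15.0% of all genes, and their median difference from the wild type 37C mean was 4.13 on replicate 1 and 2.03 on replicate 2, beside 0.013 and -0.034 over all genes. YBL100W-A had log2 intensities of 8.89 and 7.96 in wild type, and 11.07 and 10.50 in scc2-4. The scc2-4 values lay above background and both wild type values below it, and the groups did not overlap. Its level was at least 1.69-fold higher in scc2-4 (10.79 ± 0.40 against 8.43 ± 0.66, SD, n = 2), and at least 1.39-fold on replicate 2 alone. In RNA of a whole culture, more cells holding a transcript and more of it per cell cannot be told apart. A fold given as "at least" sets the brighter group against the background where no array of the dimmer group passed it.

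YAR010C had 10.84 and 9.94 in wild type, and 12.53 and 12.04 in scc2-4. It was the brightest of the 8 in wild type, above background on 1 of the 2 arrays, and the groups were separated by more than 1 log2 unit. The level was 3.73-fold higher over both replicates (12.29 ± 0.34 against 10.39 ± 0.64, SD, n = 2) and 3.16-fold higher on replicate 2. YDR261C-D had 8.19 and 6.80 in wild type, and 11.67 and 10.09 in scc2-4. Both scc2-4 arrays passed background, replicate 2 narrowly, and the level was at least 1.80-fold higher over both replicates and at least 1.04-fold on replicate 2. YAR009C had 8.53 and 6.82 in wild type, and 12.45 and 9.99 in scc2-4. Replicate 1 was more than 2 log2 units above replicate 2, which lay just above background, and the bound over both replicates was at least 2.29-fold, with none on replicate 2 alone. The other 4 (YBL100W-B, YDR261W-B, YDR316W-B and YBL005W-A) passed background on scc2-4 replicate 1 only, and on replicate 2 lay at 8.61 to 9.88. By their systematic names the 8 reading frames lie on chromosomes 1, 2 and 4, but each probe set is marked as shared between near-identical copies, so no value belongs to a single element.

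**Figure D1:**
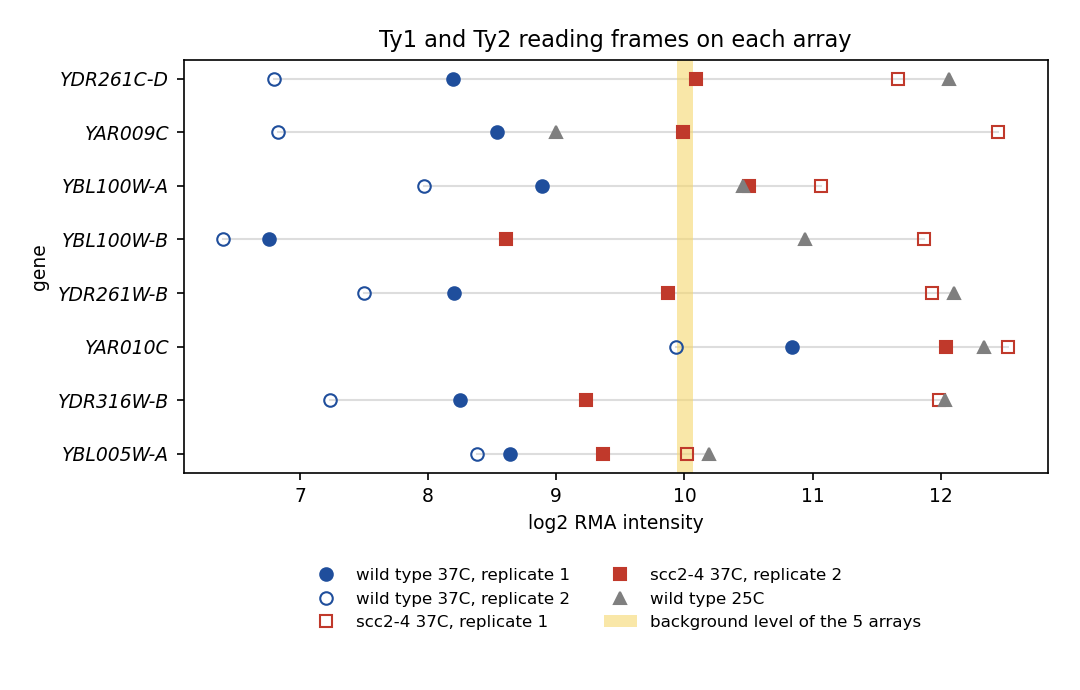
Log2 RMA intensity of the 8 Ty1 and Ty2 reading frames on each of 5 arrays, with 1 row per gene ordered by the difference of scc2-4 replicate 2 from the wild type 37C mean. The shaded band spans the background levels of the arrays (9.94 to 10.07). In every row both scc2-4 squares lie to the right of both wild type 37C circles, and the wild type 25C triangle lies right of scc2-4 replicate 2 in 6 of the 8 rows.

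The tests of these genes depended on how the spread was estimated. With 1 mean per group over all 7 arrays, limma called 0 of 5449 genes at an adjusted p under 0.05 (lowest adjusted p = 0.998). At an unadjusted p under 0.05 there were 49 higher and 19 lower genes (1.25% of those tested), among them all 8 Ty1 and Ty2 reading frames. For replicate 2 against the wild type 37C arrays, limma called 6 genes higher and 0 lower (0.110%), and all 6 were Ty1 and Ty2 reading frames, while 40 were higher and 5 lower at an unadjusted p under 0.05. YDR261C-D was higher by 2.59 ± 0.40 (log2, SE; adjusted p = 8.2e-07, limma) and YAR009C by 2.31 ± 0.40 (adjusted p = 3.0e-05). The other 4 were YBL100W-A, YBL100W-B, YDR261W-B and YAR010C (log2 differences of 2.07, 2.03, 2.03 and 1.66, adjusted p from 5.3e-04 to 0.0377). That fit has 1 residual degree of freedom and gives all genes 1 common spread, so that p is too small for a gene of larger spread, and these genes varied: wild type replicate 2 lay below replicate 1 in all 8, by 0.26 to 1.71. Replicate 2 of scc2-4 lay above the higher wild type array, replicate 1, by 0.72 to 1.90. With the spread taken from all arrays other than replicate 1, 0 genes were called on replicate 2. Leaving out either wild type array also gave 0, but the spread then came from the sth1-3 pair, so both choices changed at once. With the array set as a term over all 7 arrays, limma called 7 genes (0.128%), all higher, namely the same 6 and YDR316W-B. That fit has 2 residual degrees of freedom and draws the spread of each gene close to 1 common value, so the same limit on p holds. It also contains the 3 arrays of the replicate 2 fit, so its calls are not separate evidence.

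The wild type 37C arrays held the lowest values of all 7 arrays in each of the 8 reading frames. At 25C, 6 of the 8 lay above scc2-4 replicate 2, among them YDR261C-D at 12.07 and YAR010C at 12.33. The 2 exceptions were YAR009C at 9.00 and YBL100W-A at 10.46. In sth1-3 cells at 37C, compared with the same wild type arrays, YBL100W-A had 10.66 and 11.24 and YAR010C 12.11 and 12.47. Ty3 and Ty4 reading frames, from the other retrotransposon families with probe sets here, did not share the direction over both replicates. Of 9 listed, 5 were measured and all 5 were lower on the mean of the scc2-4 arrays, as were 50.5% of all genes, with medians of -0.53 on replicate 1 and -0.17 on replicate 2, and on replicate 2 alone 2 of the 5 were higher than the wild type mean. Only 1 of the 5 was above background on any of the 4 arrays.

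A further probe set, YER138W-A, chosen after its values were seen, shows how far the scc2-4 replicates could part. It had 5.97 and 5.98 in wild type at 37C, 13.00 on scc2-4 replicate 1, 6.45 on replicate 2 and 12.67 at 25C. Its mean difference of 3.75 was the highest of all genes, and without replicate 1 it was 0.47.

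Outside the Ty elements, the genes with the largest differences and no overlap between the groups owed most of their size to replicate 1. The genes named here were the 10 with the largest mean difference in each direction among those above background on both arrays of the higher group, out of 53 candidates that were higher and 95 that were lower in scc2-4. Higher candidates had to pass background on both scc2-4 arrays and lower ones on both wild type 37C arrays, so these numbers cannot be compared. Over all genes the groups did not overlap in 820 genes higher in scc2-4 and 770 lower (15.0% and 14.1%). The 6 higher genes that were not Ty frames were PMA1, TEF2, ENO2, HSP12, HOR7 and TDH3. They exceeded the wild type 37C mean by 1.65 to 2.74 on replicate 1 and by 0.15 to 1.02 on replicate 2, and on replicate 1 each was within 0.6 of the value at 25C. With the array set as a term their differences ran from 0.21 (TDH3) to 1.09 (HSP12). None was called (adjusted p = 0.998 each, limma).

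PMA1, the proton pump of the plasma membrane, had 9.67 and 8.26 in wild type, and 11.37 and 9.99 in scc2-4. Replicate 2 was just above its background and within 0.5 of wild type replicate 1. TDH3, a glyceraldehyde-3-phosphate dehydrogenase, had 10.23 and 10.28 in wild type, and 12.43 and 10.41 in scc2-4. The groups did not overlap, but the 2.24-fold mean difference came down to 1.11-fold on replicate 2. HSP12, a small membrane-associated protein induced by stress, had 10.51 and 9.45 in wild type, and 11.74 and 10.68 in scc2-4. It was 2.35-fold higher over both replicates and 1.63-fold on replicate 2, which lay close to wild type replicate 1. TEF2, a gene of the translation elongation factor that brings aminoacyl-tRNA to the ribosome, had 9.70 and 9.94 in wild type, and 12.56 and 9.97 in scc2-4, with replicate 2 level with the higher wild type array. Its probe set is marked as shared, so the values need not belong to TEF2 alone.

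The 10 genes named as lower in scc2-4 had the same form. They lay 1.64 to 2.30 below the wild type 37C mean on replicate 1 and 0.059 to 0.52 below it on replicate 2, and in all 10 scc2-4 replicate 2 was within 0.5 of wild type replicate 1. PAU23 is a seripauperin, one of a family of small cell wall mannoproteins made mainly without oxygen. It was the brightest gene named, with 14.20 and 14.19 in wild type, and 12.20 and 13.94 in scc2-4. The wild type 25C array had 12.15, near scc2-4 replicate 1. The related PAU2 (10.63 and 11.16, against 8.59 and 10.44) and PAU24 were also among the 10, on probe sets marked as cross-hybridising within the family. DAL81, an activator of genes for the use of poor nitrogen sources, had 10.14 and 10.35 in wild type, and 8.12 and 9.72 in scc2-4. Neither scc2-4 array passed background, and its level was at least 1.22-fold lower over both replicates and at least 1.21-fold on replicate 2. YLR154C-H, a reading frame within the ribosomal DNA whose probe set is marked as shared, had 11.67 and 11.96 in wild type, 9.55 and 11.37 in scc2-4 and 11.52 at 25C. The smallest RNA cut from the same precursor as the 25S RNA had 12.87 and 12.92 in wild type, 7.50 and 12.98 in scc2-4 and 8.40 at 25C. It was thus low beside YLR154C-H on scc2-4 replicate 1, but not on replicate 2, and was low at 25C where YLR154C-H was not. Its part in the difference was not tested. The others were EAR1, an adaptor of the ubiquitin ligase Rsp5, CST9, a meiotic crossover protein, MNL1, a mannosidase-like protein of glycoprotein quality control, SED5, a Golgi SNARE, and YPL152W-A.

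**Figure D2:**
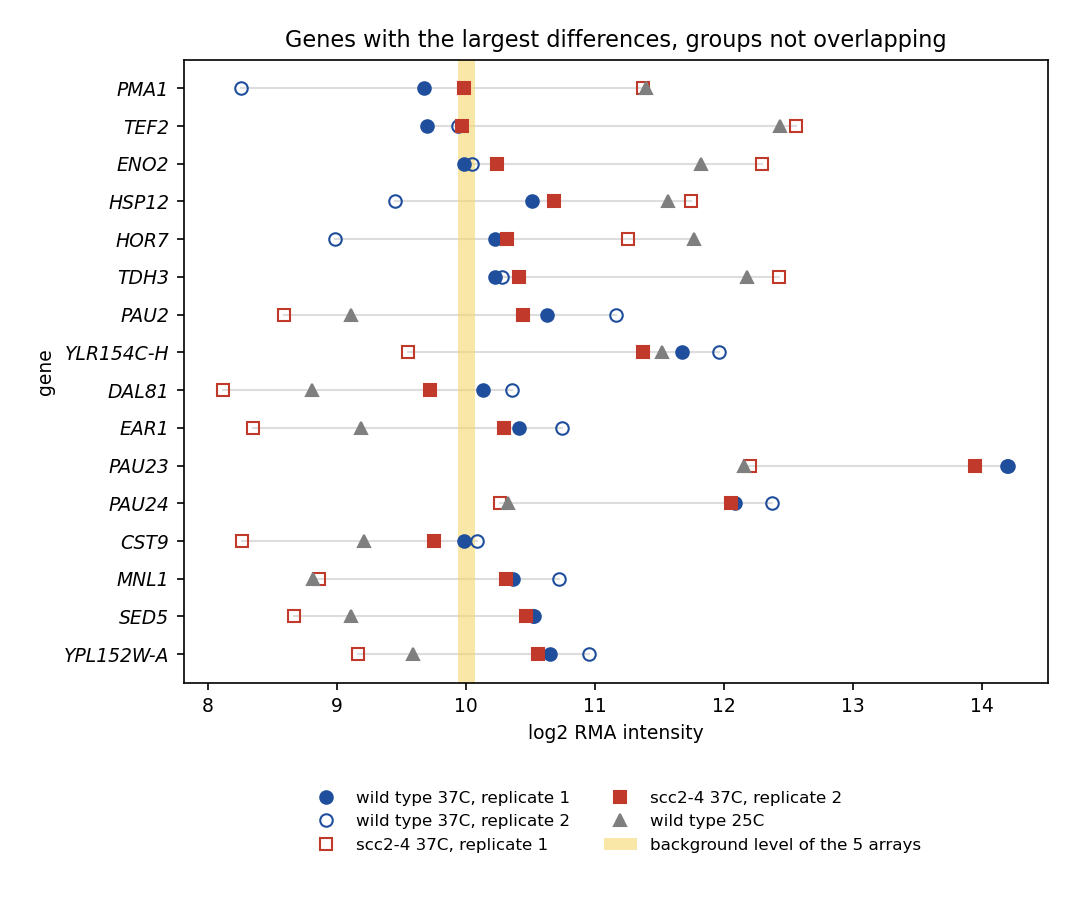
Log2 RMA intensity on each of 5 arrays for the 16 genes named by size that are not Ty reading frames, 6 higher and 10 lower in scc2-4. The shaded band spans the background levels (9.94 to 10.07). The open squares (scc2-4 replicate 1) lie far from the circles and near the wild type 25C triangles for most genes, whereas the filled squares (replicate 2) lie close to the filled circles (wild type 37C replicate 1).

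On replicate 2 alone, few genes other than the Ty frames stood apart from wild type. It lay above both wild type arrays in 1465 genes (26.9%) and below both in 1458 (26.8%). Of the 10 genes with the largest positive differences among the 178 that were also above background on that array, 4 were Ty frames. The other 6 were PMA1, GLK1, MSW1, PUN1, ESF2 and SFL1, with differences of 0.77 to 1.02, and in all 6 the wild type value was split, with scc2-4 replicate 2 within 0.5 of wild type replicate 1. GLK1, the glucokinase, shows the form: it had 10.22 and 8.46 in wild type, and 10.08 and 10.26 in scc2-4. Only wild type replicate 2 was low, and the scc2-4 values were level with wild type replicate 1. MSW1, the mitochondrial tryptophanyl-tRNA synthetase, had 9.69 and 8.97 in wild type, and 10.05 and 10.16 in scc2-4. Both scc2-4 arrays were above background and both wild type arrays below, and the level was at least 1.06-fold higher. None of the 6 was called on replicate 2 (adjusted p = 1.00 each, limma).

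The negative differences on replicate 2 were smaller, between -0.53 and -0.39 for the 10 named of 123 candidates. MLF3 headed them, with 10.17 and 10.51 in wild type, and 9.01 and 9.81 in scc2-4. RRN7, a subunit of the core factor that recruits RNA polymerase I, had 9.99 and 10.31 in wild type, and 9.56 and 9.71 in scc2-4. CAR1, the arginase, had 10.05 and 10.21 in wild type, and 9.53 and 9.74 in scc2-4. In RRN7 and CAR1 the scc2-4 replicates lay close together, below background and below both wild type arrays, at least 1.15-fold and 1.13-fold lower. CDC14, the phosphatase that drives exit from mitosis, had 11.60 and 11.77 in wild type, and 10.47 and 11.27 in scc2-4, a 1.76-fold lower mean and 1.33-fold lower on replicate 2. The others were DAL81, SMP1, a MADS-box transcription factor, PAU2, YLR154C-H, YJL052C-A and RPP0, the ribosomal stalk protein P0. RPP0 was lower on replicate 2 (9.81, against 10.15 and 10.30) and higher on replicate 1 (10.64). None of the 10 was called.

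Beyond the genes named by rule, a few with small unadjusted p were chosen after their values were seen. CAT8, an activator of gluconeogenic genes, had 9.81 and 10.46 in wild type, and 8.66 and 8.89 in scc2-4. Both scc2-4 arrays lay below both wild type arrays, of which 1 was above background, and the level was at least 1.13-fold lower both over the 2 replicates and on replicate 2. KRE6, which acts in the synthesis of cell wall beta-1,6-glucan, had 8.52 and 7.97 in wild type, and 10.18 and 9.33 in scc2-4, and only replicate 1 was above background. OLE1, the fatty acid desaturase, had 8.79 and 6.73 in wild type, and 10.34 and 9.19 in scc2-4, again with only replicate 1 above background. Its replicate 2 was nearer to wild type replicate 1 than the wild type replicates were to each other. EGT2, a cell wall protein of daughter cell separation, had 8.82 and 8.71 in wild type, and 7.67 and 7.80 in scc2-4, all below background. MF(ALPHA)1, a gene of the alpha mating pheromone, was 1 of the 2 genes more than 1 log2 unit below the wild type mean on replicate 2 (7.19, against 8.59 and 8.53), but had 8.77 on replicate 1, and no array passed background. CAT8 was the other.

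Differences were also taken within arrays of like hybridisation controls, replicate 2 minus the wild type 37C mean and replicate 1 minus the wild type 25C array, which share no array. The second of these also contains the shift from 25C to 37C. Across the 5449 genes they had a Pearson r of 0.21 and a Spearman rho of 0.19, a description over genes, and all values were made by the same normalization method. Both differences were over 0.5 in 54 genes and below -0.5 in 41. Those named are the 5 genes with both over 0.5 that were above background on both scc2-4 arrays, namely YAR009C, YBL100W-A, PAU17, FAS1 and MGM101. All of them except PAU17 were below background on wild type 37C replicate 2 and so qualified only through the scc2-4 arrays, while the lower direction asked for signal on all 3 wild type arrays, so the numbers that qualified in each direction cannot be compared.

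YAR009C differed by 2.31 within the first pair and by 3.45 within the second. YBL100W-A differed by 2.07 and 0.61. PAU17, a seripauperin, had 14.06 and 12.90 in wild type at 37C, 12.01 and 14.05 in scc2-4 and 10.68 at 25C. Its groups overlapped, and scc2-4 replicate 2 was level with wild type replicate 1, so its differences of 0.57 and 1.33 rested on wild type replicate 2 and on the single 25C array. FAS1, the beta subunit of fatty acid synthase, had 10.70 and 8.96 in wild type at 37C, 10.36 and 10.66 in scc2-4 and 9.79 at 25C, and its groups overlapped too. MGM101, a recombination protein of mitochondrial DNA, had 9.99 and 9.37 in wild type at 37C, 10.88 and 10.19 in scc2-4 and 10.18 at 25C. Its groups did not overlap, and its level was 1.81-fold higher over both replicates and 1.43-fold on replicate 2 (over both, adjusted p = 0.998, limma).

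**Figure D3:**
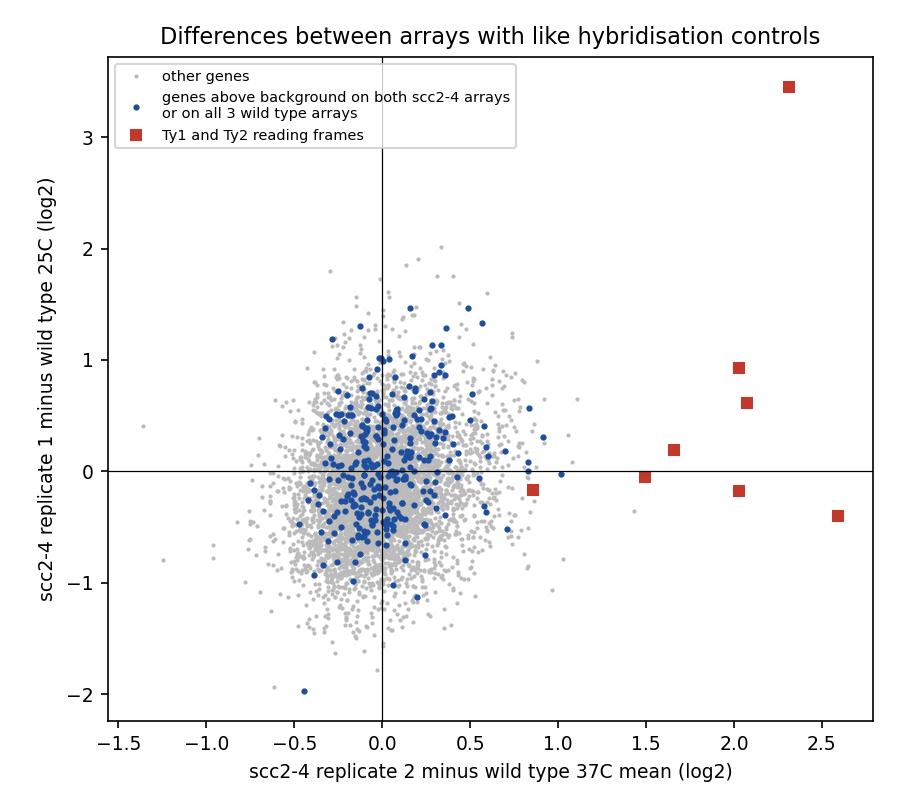
Log2 differences of the 5449 genes within arrays of like hybridisation controls, with scc2-4 replicate 2 minus the wild type 37C mean on the horizontal axis and scc2-4 replicate 1 minus wild type 25C on the vertical axis. Blue points are the 306 genes above background on both scc2-4 or on all 3 wild type arrays, and red squares the 8 Ty1 and Ty2 reading frames. The red squares lie to the right of nearly all other points, at 0.86 to 2.59, but spread around 0 on the vertical axis except for YAR009C at 3.45.

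Several gene lists, among them ribosomal protein and glycolysis genes, lay higher on replicate 1 and on the mean of both replicates, but near wild type on replicate 2. Of 137 cytosolic ribosomal protein genes listed, 127 were measured and 119 were higher on the mean, where 49.5% of all genes were. Their groups did not overlap in 45 genes, all higher (15.0% over all genes), and 0 were called. The list median was 1.41 on replicate 1, 0.057 on replicate 2 and 1.53 for wild type at 25C, each relative to the wild type 37C mean. On the wild type arrays 9 and 11 members were above background, on scc2-4 75 and 12. RPS8A, the brightest member, had 11.18 and 10.24 in wild type, and 11.16 and 11.26 in scc2-4, so that replicate 1 lay inside the wild type range. RPL24B had 10.12 and 10.25 in wild type, and 11.36 and 10.09 in scc2-4, higher on replicate 1 and lower on replicate 2. RPS11A had 10.74 and 10.45 in wild type, and 11.12 and 10.70 in scc2-4.

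Glycolysis and fermentation genes followed the same course, with 19 of 20 measured, 18 higher on the mean and medians of 1.72 on replicate 1, 0.090 on replicate 2 and 1.68 at 25C. ENO2, an enolase, had 9.98 and 10.05 in wild type, and 12.29 and 10.24 in scc2-4. ADH1, the fermentative alcohol dehydrogenase, had 8.81 and 9.10 in wild type, and 12.34 and 9.04 in scc2-4. It was above background on scc2-4 replicate 1 alone of these arrays, and on replicate 2 lay inside the wild type range. Histone genes, a list of core histones that also holds the linker histone HHO1, had medians of 0.68 on replicate 1 and -0.026 on replicate 2. Translation factors had 0.57 and -0.013, and proteasome subunits 0.57 and -0.017. Genes of the unfolded protein response and folding in the endoplasmic reticulum had 0.67 and -0.043. At 25C the medians of these lists were 0.59, 0.59, 0.84 and 0.69 in the same order. KAR2, the chaperone of the endoplasmic reticulum lumen, had 10.01 and 10.14 in wild type, and 11.91 and 10.04 in scc2-4, showing the same split. In none of these lists was a member called.

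**Figure D4:**
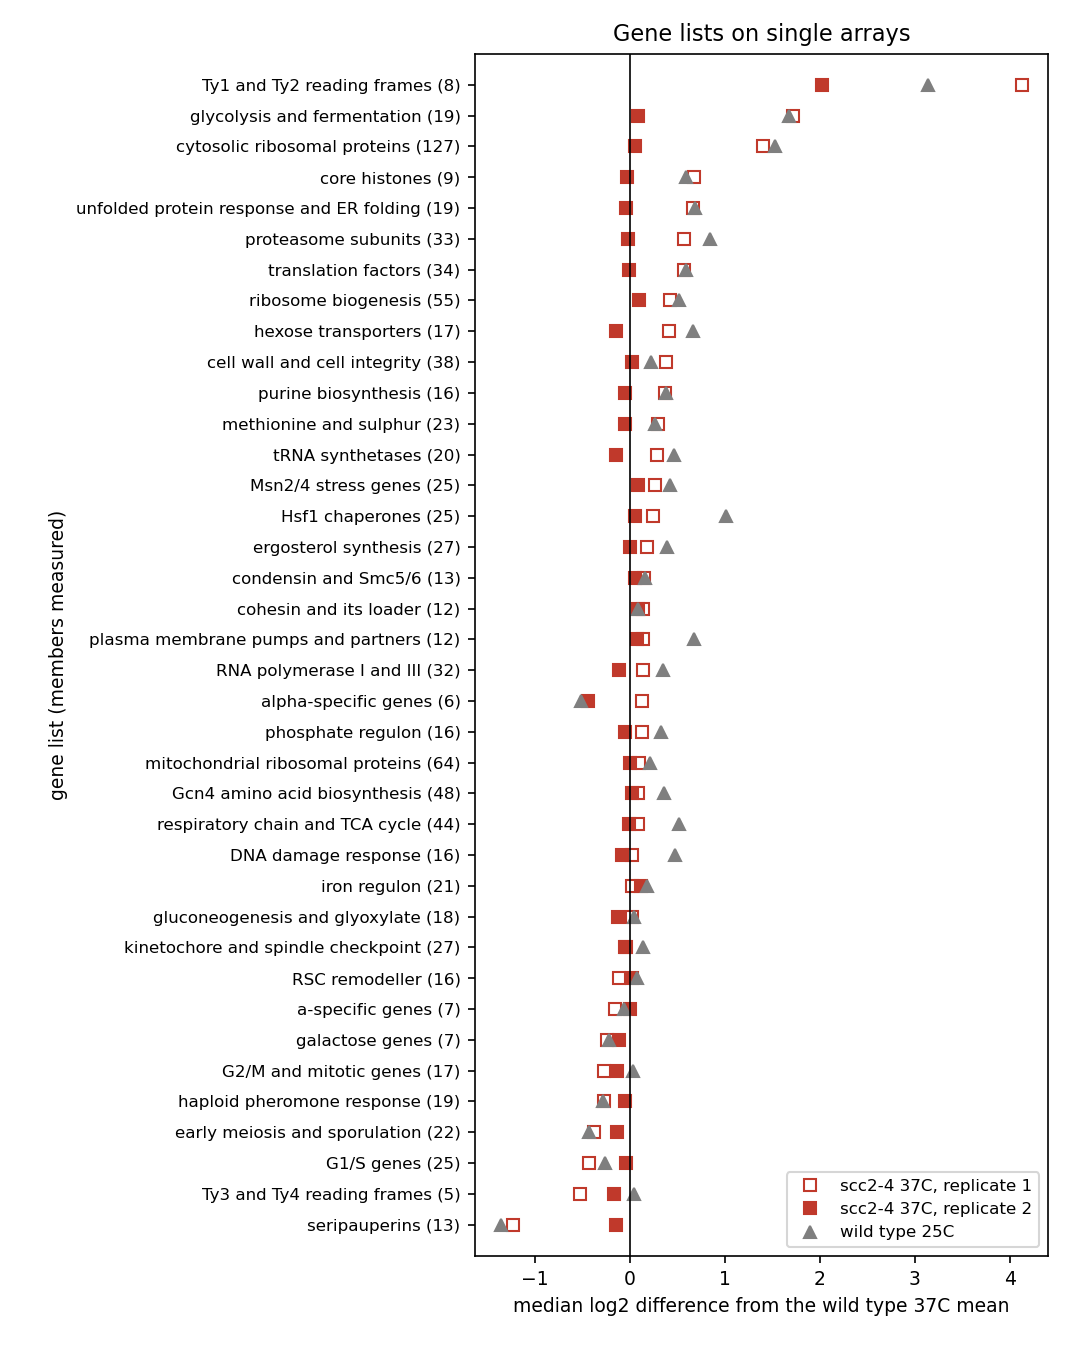
Median log2 difference from the wild type 37C mean for the 38 gene lists, with 1 row per list and the number of measured members in brackets. Open and filled squares are scc2-4 replicates 1 and 2, and triangles the wild type 25C array. Apart from Ty1 and Ty2 reading frames (2.03) and alpha-specific genes (-0.44), the filled squares lie between -0.17 and 0.11, while the open squares reach 1.72 for glycolysis and -1.24 for seripauperins.

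Ribosome biogenesis genes, which encode the factors that make and process ribosomal RNA, lay slightly above wild type on replicate 2 as well, like some other lists. Of 55 measured, 23 lay above both wild type arrays on replicate 2 and 6 below (26.9% and 26.8% over all genes), with a list median of 0.097 beside -0.034 over all genes. The median on replicate 1 was 0.42, and at 25C it was 0.52. The groups did not overlap in 19 genes that were higher (34.5%, against 15.0% of all genes) and 2 that were lower (3.64%, against 14.1%). IMP3, a protein of the small subunit processome, had 9.71 and 9.24 in wild type, and 10.02 and 10.05 in scc2-4. Both scc2-4 arrays were just above background, and the level was at least 1.01-fold higher. CBF5, the pseudouridine synthase of the box H/ACA particles, had 8.30 and 8.66 in wild type, and 9.12 and 9.22 in scc2-4. DBP8, an RNA helicase, had 9.44 and 8.18 in wild type, and 9.67 and 9.47 in scc2-4. CBF5 and DBP8 were chosen after their values were seen and were below background on all 4 arrays. UTP5, a brighter member, had 10.17 and 10.42 in wild type, and 9.86 and 10.40 in scc2-4, where replicate 2 lay inside the wild type range. Only 7 members passed background on any of the 4 arrays, and 0 were called.

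Some lists had more members below than above the wild type range on replicate 2, among them several lists of dim genes. Over all genes 26.8% lay below both wild type arrays and 26.9% above. DNA damage response genes lay below both wild type arrays on replicate 2 in 7 of 16 members and above in 2, tRNA synthetase genes in 7 and 2 of 20, early meiosis and sporulation genes in 8 and 3 of 22, and G2/M and mitotic genes in 5 and 2 of 17. The shares below were 43.8%, 35.0%, 36.4% and 29.4%, the last of them near that of all genes. Their medians on replicate 2 were -0.083, -0.14, -0.13 and -0.14. On that array 0 of the DNA damage genes, 1 of the synthetases, 1 of the meiosis genes and 0 of the mitotic genes were above background. CDC20, the activator of the anaphase-promoting complex, had 9.42 and 9.67 in wild type, and 9.25 and 9.31 in scc2-4, lower without overlap but below background throughout. Alpha-specific genes had the lowest median of all lists on replicate 2, -0.44, with 4 of 6 members below both wild type arrays and 0 above background. The seripauperins were brighter, with 8 of 13 measured members above background on replicate 2. They were lower on the mean in all 13, with medians of -1.24 on replicate 1, -0.14 on replicate 2 and -1.36 at 25C.

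**Figure D5:**
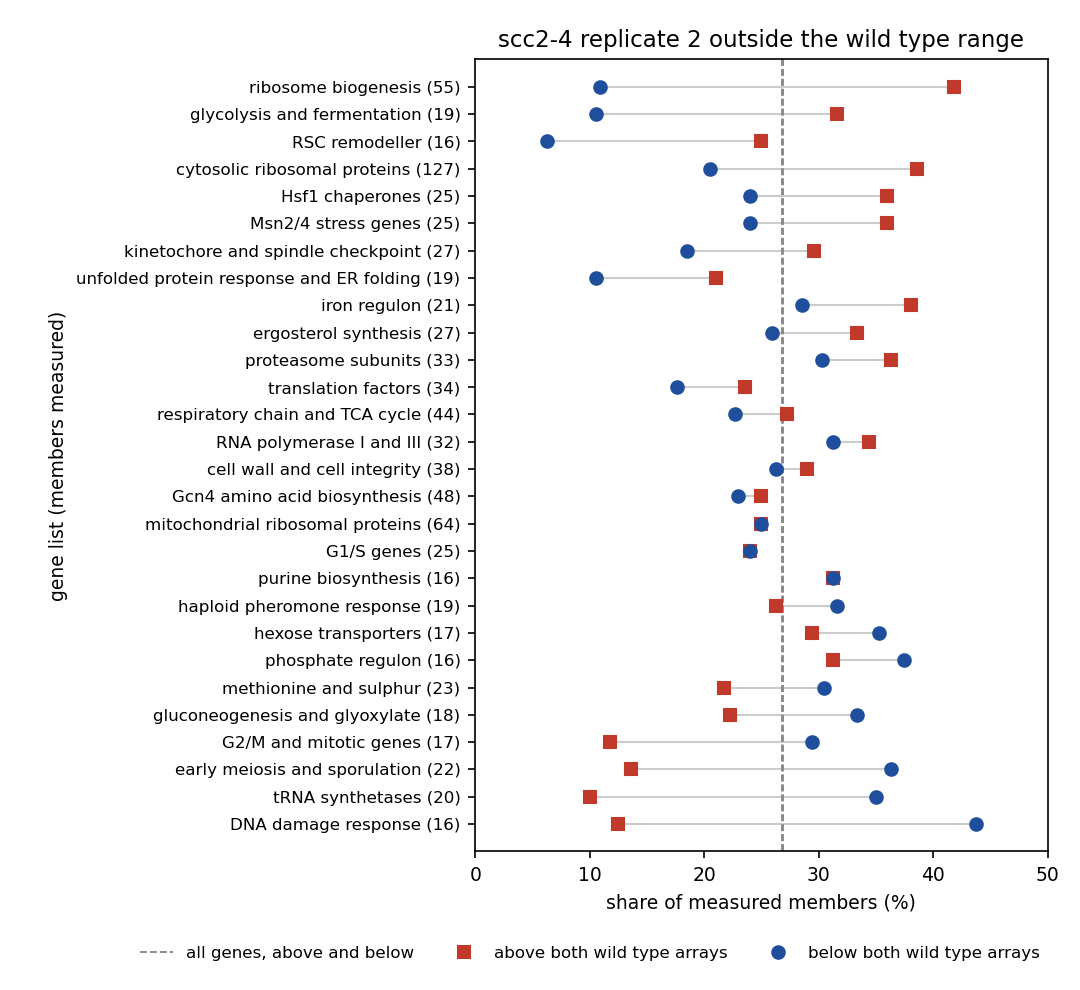
Share of the measured members of each gene list with at least 15 of them that lay above (red squares) or below (blue circles) both wild type 37C arrays on scc2-4 replicate 2. Dashed lines mark all genes, at 26.9% above and 26.8% below. Ribosome biogenesis genes head the chart with 41.8% above and 10.9% below, cytosolic ribosomal proteins have 38.6% and 20.5%, and DNA damage response genes stand at the foot with 12.5% above and 43.8% below.

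Stress genes lay near wild type on replicate 2. Chaperone genes of the heat shock factor Hsf1 had medians of 0.24 on replicate 1 and 0.056 on replicate 2, and 1.01 at 25C, with 36.0% of members above both wild type arrays on replicate 2 and 24.0% below (26.9% and 26.8% over all genes). SSA4, a heat-inducible Hsp70, had 10.86 and 10.45 in wild type, and 10.52 and 10.27 in scc2-4, where replicate 2 lay below both wild type arrays. SSA1, a cytosolic Hsp70, had 9.94 and 10.17 in wild type, and 10.79 and 9.88 in scc2-4. General stress genes of Msn2 and Msn4 had medians of 0.26 and 0.088. RTN2, a reticulon among them, had 10.88 and 11.26 in wild type, and 9.81 and 10.98 in scc2-4. Cell wall genes had medians of 0.38 and 0.025. SED1, a cell wall mannoprotein, had 10.17 and 10.09 in wild type, and 11.66 and 10.72 in scc2-4. It was above background on all 4 arrays without overlap, and was 2.08-fold higher over both replicates and 1.51-fold on replicate 2. CCW12, another mannoprotein, had 10.66 and 10.75 in wild type, and 12.17 and 11.10 in scc2-4, 1.91-fold and 1.32-fold higher. CWP2, of the same class, had 11.01 and 10.93 in wild type, and 11.72 and 10.86 in scc2-4, with replicate 2 below both. None was called.

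Genes of cohesin and of its loader were mostly dim, and 0 of 12 were called. SCC2 itself had 7.25 and 7.74 in wild type, and 7.22 and 7.15 in scc2-4, all below background. A mutation of the protein need not alter its transcript, so this level says nothing about the label. SCC4, the gene of the loader's other subunit, had 10.51 and 10.17 in wild type, and 11.52 and 10.63 in scc2-4. It was above background on all 4 arrays without overlap, but replicate 2 exceeded wild type replicate 1 by less than the wild type replicates differed, and the wild type 25C array had 11.07. PDS1, the securin that restrains separase, had 11.20 and 11.56 in wild type, and 10.78 and 11.40 in scc2-4, with replicate 2 inside the wild type range. SMC1, an ATPase subunit of the ring, had 10.35 and 9.78 in wild type, and 9.52 and 10.07 in scc2-4. IRR1, another subunit, had 9.91 and 10.43 in wild type, and 9.03 and 9.95 in scc2-4. MCD1, the kleisin also called Scc1 and tagged in the scc2-4 strain, had 9.12 and 8.47 in wild type, and 8.50 and 8.96 in scc2-4. The groups overlapped in SMC1, IRR1 and MCD1. SMC3, PDS5, RAD61, ECO1, REC8 and ESP1 were below background on all 4 arrays, with mean differences of 0.044 to 0.59 over both replicates and -0.067 to 0.48 on replicate 2. Over the 12 genes the median was 0.14 on replicate 1 and 0.088 on replicate 2. The groups did not overlap in 5 genes that were higher (41.7%, against 15.0% of all genes) and 1 that was lower (8.33%, against 14.1%). On replicate 2, 5 lay above both wild type arrays and 1 below (26.9% and 26.8% over all genes). Those 5 were SCC4, SMC3, PDS5, ECO1 and REC8, and only SCC4 passed background. The sign of the list median was not stable. Over both scc2-4 replicates it was 0.084, with 0.13 without wild type replicate 1 and -0.046 without wild type replicate 2. Over members that passed background on 2 or more arrays it was -0.27, and under the other alternatives it stayed positive.

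The remodeller RSC, whose Sth1 subunit is tagged in the scc2-4 strain, gave values near those of all genes. STH1 had 9.35 and 9.70 in wild type, and 9.14 and 9.53 in scc2-4, overlapping and below background. Over 16 measured RSC genes the medians were -0.12 on replicate 1 and 0.025 on replicate 2, and RSC8, the brightest, had 10.90 and 11.02 in wild type, and 11.50 and 10.90 in scc2-4. Kinetochore and spindle checkpoint genes had medians of -0.046 and -0.052 over 27 members. SPC25, a subunit of the Ndc80 complex, had 10.10 and 9.64 in wild type, and 11.38 and 10.14 in scc2-4, with 11.25 at 25C, and replicate 2 was level with wild type replicate 1. ASK1, of the Dam1 complex, had 9.99 and 9.98 in wild type, and 10.90 and 10.14 in scc2-4, higher without overlap.

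Markers of the strains were dim. URA3, the marker beside the Sth1 tag, lay between 7.75 and 8.85 on the 4 arrays, below background on each. On this probe set scc2-4 replicate 1 was the highest and scc2-4 replicate 2 the lowest. The order was not the same on the control probe sets of URA3, also below background. The 5' one had 8.62 and 8.60 in wild type, and 8.49 and 8.66 in scc2-4. On the 3' and middle ones scc2-4 replicate 1 was the highest and wild type replicate 1 the lowest. The wild type and scc2-4 strains are of mating type a. Of 7 a-specific genes measured and 6 alpha-specific genes measured, 0 were above background on any of the 4 arrays, so mating type could not be checked from them. The summed log2 levels of the a-specific genes were 59.0 and 60.5 in wild type, and 57.8 and 59.8 in scc2-4, and those of the alpha-specific genes 52.3 and 52.1, and 52.4 and 49.3.

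Chromosome medians, with positions read from the systematic names, lay close to the median of all genes. The median difference over both replicates was -0.0051 over all genes, and the chromosome farthest from it was chromosome 6, at 0.067 over 117 genes. Over genes that passed background on 2 or more arrays, the largest distance of a chromosome from the median was 0.245. On replicate 2 the chromosome medians ran from -0.062 to -0.011. The 312 genes nearest the centromeres, within the first 10 on each arm, had a median of 7.9e-05 over both replicates and -0.039 on replicate 2, and the 264 nearest the telomeres -0.030 and -0.054, beside -0.034 over all genes on replicate 2.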

How the data were processed

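Values were used as the authors deposited them, as log2 intensities per probe set. Per the submitters' processing notes these came from RMA in the affy package; whether all arrays were normalized together is not given in the sources used here. Of 10928 probe sets, 5498 belonged to S. cerevisiae genes by the platform annotation, matched to the R64 reference genes, and the brightest probe set represented each of the 5449 genes. Groups came from the sample titles, also for the 25C array, whose growth protocol describes the shift to 37C. Nothing in the labels states that replicates were separate cultures, so the spread behind each p-value is that of these arrays and could be technical. The number of arrays limits the precision.

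All 7 arrays were fitted with 1 mean per group (3 residual degrees of freedom), and scc2-4 replicate 2 with the wild type 37C arrays (1 residual degree of freedom), with limma 3.58.1 (lmFit, eBayes) under R 4.3.3, two-sided, with Benjamini-Hochberg adjustment over all genes and a threshold of 0.05. Other tabulation used Python 3.11.15 and pandas 2.3.3. Genes named were the 10 largest differences in each direction above background without overlap between groups, over both replicates and for replicate 2, those with both within-set differences over 0.5 in size, called genes, cohesin genes, STH1 and URA3, and up to 3 brightest members of a list. TRP1 was not analysed here. Gene lists (38, with 953 of 1073 distinct genes measured) have no test. The comparison, lists and rules were chosen with earlier results of these data known. Alternatives were other spread estimates, normalizations and filters, a replicate block, an array set term and leaving out each replicate.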

Additional observations from a re-analysis of the deposited data

How the results depend on the processing

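The count of genes called over both replicates, 0, became 1 with the replicate block (YDR261C-D, adjusted p = 0.0349, limma), 7 with the array set as a term and 0 to 1 without each replicate. The 1 call, YBL100W-B, came without scc2-4 replicate 2. Deviations of same-numbered replicates correlated at -0.196 between wild type and scc2-4, -0.360 between wild type and sth1-3 and 0.552 between scc2-4 and sth1-3, across genes, so the numbers do not pair all arrays, and a crossed pairing, added after seeing the data, called 0. The 6 calls on replicate 2 became 0 with shared probe sets left out, which removes the Ty1 and Ty2 frames, 0 with the spread taken from all 7 arrays without replicate 1, 0 without either wild type replicate, where the spread came from the sth1-3 pair, and 5 with robust eBayes. Lists with a median above that of all genes numbered 25 (18 to 28 under the alternatives). The chromosome farthest from the median of all genes differed by 0.072, by 0.245 over genes that passed background on 2 or more arrays, and by 0.028 to 0.10 without each replicate. Of single list medians, 390 values under alternatives stayed within the SD between the 2 scc2-4 replicate medians and 60 moved further. That SD was 0.95 for cytosolic ribosomal proteins and 0.0044 for kinetochore and spindle checkpoint genes. Lists with unlike replicates were thus allowed the largest shifts, so these counts do not show how stable the list medians were.

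Some genes changed sign, none of them called. Without each replicate in turn, the mean difference ran from -0.050 to 1.71 for GLK1, from -0.12 to 0.82 for ESF2, from -0.21 to 0.93 for SFL1, from -0.42 to 0.41 for RPP0, from -1.47 to 0.57 for PAU17, from -0.19 to 1.55 for FAS1, from -0.40 to 0.26 for MCD1, from -0.55 to 0.021 for SMC1, from -0.11 to 0.19 for RAD61, from -0.067 to 0.32 for ESP1 and from -0.60 to 0.024 for PDS1. It ran from -0.39 to 0.0078 for STH1, from -0.14 to 0.97 for URA3, from -0.092 to 1.17 for RPL24B, from -0.44 to 0.10 for UTP5, from -1.09 to 0.055 for PAU5, from -0.11 to 0.75 for CWP2, from -0.034 to 1.84 for KAR2, from -0.18 to 0.74 for SSA1, from -0.060 to 0.54 for RSC8, from -0.026 to 2.44 for HHF1 and from -1.36 to 0.21 for MF(ALPHA)1. With the array set as a term it became 0.77 for PAU17, 0.17 for MCD1, -0.29 for ESP1, 0.056 for PDS1, -0.12 for URA3, -0.091 for RPL24B, 0.0078 for UTP5, 0.13 for PAU5, -0.014 for CWP2, -0.039 for STI1 and -0.10 for SSA1, and with cyclic loess 0.055 for RPP0. The cause was not tested.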

Other observations

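Probe sets with no gene name here numbered 3517. Their species was not assigned, and the array also carries S. pombe probe sets. A probe set counted as higher if both scc2-4 arrays were above background and above both wild type 37C arrays. Replicate 2 also had to exceed the wild type 37C mean by more than 1 log2 unit. The lower direction asked for the reverse, with both wild type 37C arrays above background. By these rules 1 was higher and 0 were lower, and the numbers cannot be compared. The higher one had 9.45 and 8.46 in wild type at 37C, 10.17 and 10.21 in scc2-4 and 9.55 at 25C, a difference of 1.25 on replicate 2.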
